A study of Homo sapiens with 84 samples.

Results

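Kyse30 cells were treated for 6 h with EGFhigh + EpEX and compared with cells that received Fc for the same time. Kyse30 is an established line of esophageal squamous carcinoma cells with an amplified EGFR gene. The comparison used 7 of the 84 libraries of the series, chosen from the sample titles, with 4 libraries of EGFhigh + EpEX (replicates 1 to 4) and 3 of Fc (replicates 1, 3, and 4). EGFhigh stands for 9 nM EGF, the epidermal growth factor. EpEX is the extracellular domain of EpCAM, given at 50 nM as a fusion with the Fc region of an immunoglobulin, and Fc is that region alone. The cells of both groups had been deprived of serum for 24 h before the treatment and were kept without serum. The libraries measured the 3′ ends of polyadenylated RNA of all cells in a culture, and the deposited values are the number of reads per gene. Other Kyse30 groups set beside these were untreated cells (3 libraries), EpEX (3), EGFlow, which is 1.8 nM EGF (4), and EGFhigh (4) at 6 h, and EGFhigh + EpEX (3) and Fc (3) at 72 h. All are 1 cell line, and the labels do not say whether the replicates were separate cultures, so the p-values measure the spread between these libraries, which may be technical.

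EGF binds EGFR, a receptor tyrosine kinase, and the receptor passes the signal on through the kinases of the ERK and AKT pathways. ERK drives immediate-early transcription factors, then EGFR ligands and inhibitors of the pathway itself. AKT keeps FOXO transcription factors out of the nucleus, and FOXO targets such as brakes of growth and metabolism are then transcribed less. Growth factors also raise the production of ribosomes, a task of many nucleolar proteins and a main cost of cell growth. EpCAM is a surface protein of epithelial cells, and its shed ectodomain EpEX has been described as a ligand of EGFR. The comparison asks which genes respond in the first hours when both ligands are present.

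Total counts on genes were 4507731 to 10438330 in the 4 EGFhigh + EpEX libraries and 4546701 to 6809146 in the 3 Fc libraries, and a floor of 3 counts corresponded to 0.303 to 0.669 CPM, the count scaled to the normalized library size. No pair of libraries of 1 group agreed within sampling noise. All 12 markers of squamous epithelium had a count in both groups, with a summed level of 4380 to 5027 CPM under EGFhigh + EpEX and 3404 to 3636 CPM under Fc. Most of this came from EGFR, SFN, PERP, and EPCAM, while the basal keratins KRT5 (1.2 to 2.36 CPM) and KRT14 (0 to 1.34 CPM) were near the floor in every library. Leukocyte markers summed to 1.02 to 4.06 and 1.18 to 3.79 CPM (3 of 6 and 4 of 6 with a count, PTPRC at 0 in both groups). Endothelial markers summed to 0.303 to 3.85 and 2.90 to 4.81 CPM (1 of 5 with a count in each group, PECAM1, VWF, KDR, and TEK at 0), and fibroblast markers to 9.90 to 23.7 and 15.2 to 19.7 CPM (5 of 6 in each, with LUM at 0 under EGFhigh + EpEX and COL3A1 at 0 under Fc).

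The libraries stood apart in one respect that bears on every result. The level of a gene relative to its mean over all Kyse30 libraries followed the GC content of the last 500 bases of its transcripts. The Spearman correlation over 8953 genes was 0.0953, 0.0944, 0.273, and 0.257 in the EGFhigh + EpEX libraries and -0.334, -0.124, and -0.0927 in the Fc libraries. The genes of a library are not independent replicates, so this is a description. Genes with a GC content of at least 55% had a median log2FC, the log2 fold change of EGFhigh + EpEX against Fc, of 0.38, and genes under 35% one of -0.15. The same medians were 0.03 and -0.01 for EGFhigh against untreated cells, and -0.15 and 0.05 for Fc against untreated cells. A part of the trend set by the treatment and a part set by the preparation of the libraries cannot be told apart. The comparison was therefore also fitted after a GC correction, which took the trend out of each library and was chosen after seeing the data. A DEG named below kept its call with this correction unless its loss is stated. Such a correction also takes out any difference between the cells that runs with GC content.

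**Figure D1:**
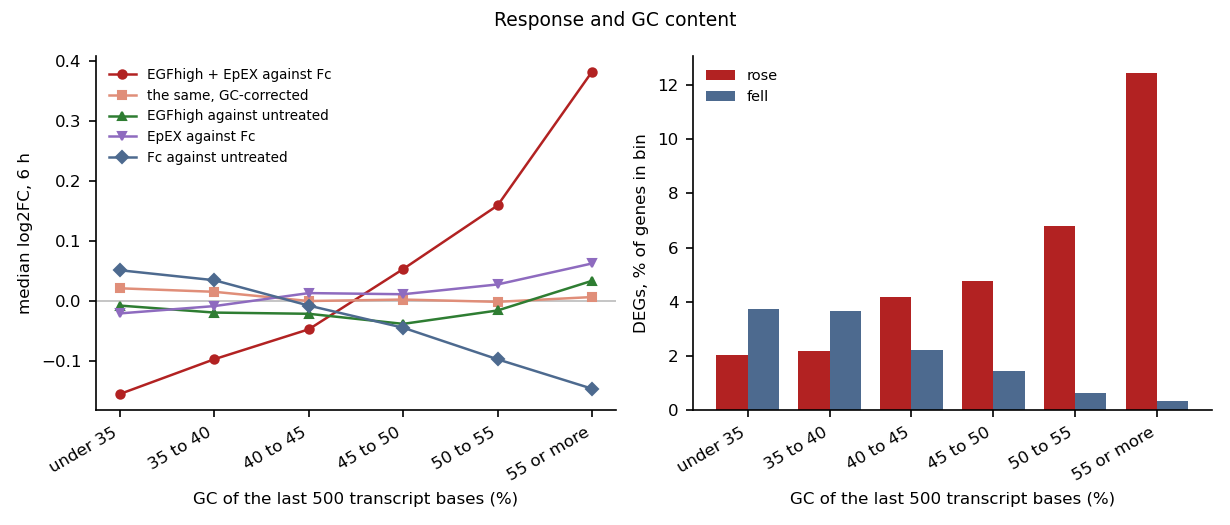
Left, median log2FC at 6 h (y axis) in bins of the GC content of the last 500 transcript bases (x axis, %), for 8953 genes with a mean log2 CPM over 3, in 4 comparisons and for EGFhigh + EpEX against Fc after GC correction. Right, share of the genes of each bin that rose or fell as DEGs under EGFhigh + EpEX (y axis, %). The median of EGFhigh + EpEX against Fc runs from -0.15 to 0.38 and lies near 0 after the correction, while that of EGFhigh against untreated cells stays between -0.04 and 0.03. DEGs that rose make up 2.03% of the genes in the lowest bin and 12.5% in the highest.

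EGFhigh + EpEX changed 694 of 15350 genes tested (4.52%) against Fc, of which 462 rose (3.01%) and 232 fell (1.51%). Counts in the gene lists below are to be read beside these shares of all genes. Among the DEGs that rose were 38 of 118 genes of ribosome biogenesis, and among those that fell were 6 of 34 growth-arrest and FOXO-linked genes. A gene counted as a DEG when its log2FC was beyond 0.5 in either direction at an adjusted p no higher than 0.05, and the adjusted p-values here and below are from edgeR's quasi-likelihood F test with the Benjamini-Hochberg adjustment over all genes tested. The median log2FC was 1.06 among the genes that rose and -1.12 among those that fell, and 677 of the DEGs code for proteins. In 634 of the 694 DEGs the values of both groups did not overlap, while the groups did not overlap in 2316 of all genes tested (15.1%, with the treated libraries higher in 7.97% and lower in 7.11%). With GC correction 491 genes passed (3.2%), with 346 up (2.25%) and 145 down (0.945%), and 395 of the 694 were among them. The DEGs that lost their call had a median GC content of 58.8% where they had risen (182 genes) and of 32.6% where they had fallen (117 genes), against 42.4% over all genes. With the replicate number as a block 1091 genes passed, and 761 with the block and the GC correction together. The count depended most on Fc replicates 1 and 4, with 222 DEGs without Fc replicate 1 and 272 without Fc replicate 4. It was 562 without Fc replicate 3 and 511 to 837 without 1 treated library. The Fc group was the smaller one. Against the untreated instead of the Fc libraries, 217 genes passed (1.41%, 147 up and 70 down). In RNA of whole cultures, fewer cells that express a gene and less of its RNA per cell cannot be told apart.

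Among the genes that rose most was SPOCD1, which codes for a SPOC domain protein of germ cells and lies on chr1:31790422-31816051 (GRCh38). It was at 32.5, 14.5, 11.5, and 9.81 CPM in replicates 1 to 4 of EGFhigh + EpEX and at 0.776, 1.78, and 1.33 CPM in Fc replicates 1, 3, and 4. Every treated library was above every Fc library. Absence of overlap was required of genes named for the highest or lowest log2FC or the lowest adjusted p, so it is no added support. The log2FC was 3.73 ± 0.67 (SE, edgeR adjusted p = 0.000696).

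AKAP12, a scaffold that ties protein kinase A and protein kinase C to the cell cortex, lies on chr6:151239999-151358557. Its level was 85.1, 90.3, 95.8, and 121 CPM under EGFhigh + EpEX and 13.3, 19.2, and 11.5 CPM under Fc. The treated libraries were close to each other and the log2FC was 2.75 ± 0.44 (SE, edgeR adjusted p = 0.000342). ARID3B, a DNA-binding protein of the AT-rich interaction domain family, had 75.8, 50.9, 35.6, and 35.2 CPM against 8.38, 10.7, and 10.6 CPM, a log2FC of 2.32 ± 0.34 (SE, edgeR adjusted p = 9.8e-05). RELB, the subunit of the non-canonical NF-κB pathway, had 96.6, 44.3, 49.0, and 37.2 CPM against 9.15, 13.4, and 12.7 CPM, a log2FC of 2.28 ± 0.33 (SE, edgeR adjusted p = 9.8e-05). In both, the treated replicate 1 was the highest library, and the groups did not overlap, as the naming rule required. KAZN, which codes for the desmosome-associated protein kazrin, rose from 6.52, 6.91, and 6.80 CPM to 19, 47.7, 32.3, and 37.6 CPM (log2FC 2.34). All 5 genes kept their call with GC correction, with log2FC values from 1.96 for RELB to 3.45 for SPOCD1, and with each of the 7 libraries left out in turn.

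KRT6A, KRT17, VPS9D1-AS1, NAT8L, and ADM2 completed the 10 genes with the highest log2FC among DEGs without overlap and with a mean of at least 5 CPM. KRT6A and KRT17 are described with the keratins. VPS9D1-AS1, an antisense RNA, had 11.5 to 35.2 CPM under EGFhigh + EpEX and 2.67 to 5.74 CPM under Fc, but the strand setting of the counting is not given in the sources used here, so its reads cannot be told from those of VPS9D1. NAT8L, the enzyme that makes N-acetylaspartate, had 6.69 to 9.41 against 0.892 to 2.48 CPM, and lost its call with GC correction (edgeR adjusted p = 0.0664) and without Fc replicate 3 or 4 (highest adjusted p = 0.0676). ADM2, a peptide hormone of the calcitonin family, had 60.0 CPM in treated replicate 1 and 3.85 to 13.2 CPM in the others, against 1.48 to 3.34 CPM under Fc. Its call was lost with GC correction and without any one of treated replicate 1 and Fc replicates 1, 3, and 4 (edgeR adjusted p = 0.291 at the highest, 0.0578 with GC correction).

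SRM and GNB1L were also among the 5 DEGs with the lowest adjusted p. SRM, which makes spermidine, was at 226, 322, 341, and 236 CPM against 71.1, 98.1, and 75.1 CPM, a log2FC of 1.79 ± 0.25 (SE, edgeR adjusted p = 9.8e-05). GNB1L, a WD repeat protein, was at 38.7 to 41.5 CPM in the 4 treated libraries and at 12.4 to 12.6 CPM in the 3 Fc libraries (log2FC 1.69). Both rose in all 7 left-out fits and with GC correction, where the log2FC of SRM, a gene with 62.8% GC, was 1.33.

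**Figure D2:**
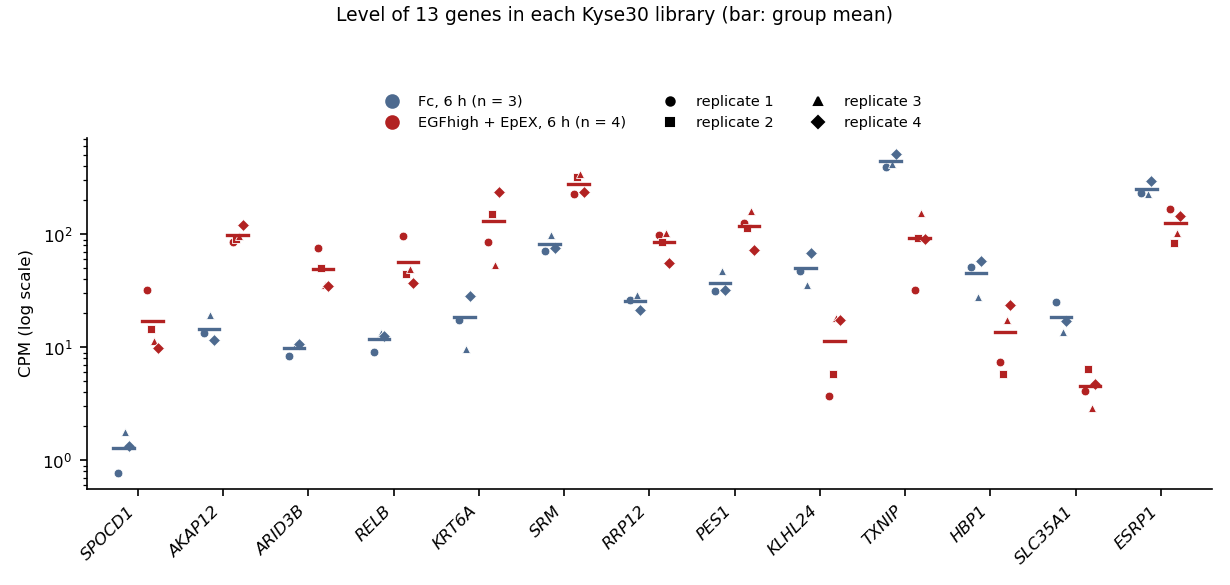
Level of 13 genes (x axis) in each library, in CPM on a log scale (y axis). Blue symbols are the 3 Fc libraries, red symbols the 4 EGFhigh + EpEX libraries, the shape gives the replicate number, and bars are group means. In none of the 13 genes do the groups overlap, from SPOCD1 (Fc 0.776 to 1.78 CPM, treated 9.81 to 32.5 CPM) to ESRP1 (Fc 226 to 297 CPM, treated 84.1 to 169 CPM). The naming rule required this of the genes taken for the highest or lowest log2FC or the lowest adjusted p.

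Among the genes that fell, KLHL24, a FOXO-linked adaptor of a ubiquitin ligase that controls keratin turnover, had the lowest adjusted p of the 10 with the lowest log2FC. It was at 3.75, 5.78, 18.2, and 17.5 CPM under EGFhigh + EpEX and at 47.8, 35.7, and 68.1 CPM under Fc, a log2FC of -2.14 ± 0.34 (SE, edgeR adjusted p = 0.000278). TXNIP, the arrestin-like protein that limits glucose uptake and binds thioredoxin, was at 32.4, 93.7, 155, and 91.9 CPM against 392, 424, and 517 CPM, a log2FC of -2.25 ± 0.53 (SE, edgeR adjusted p = 0.00931). SLC35A1, the transporter that carries CMP-sialic acid into the Golgi, was at 4.15, 6.42, 2.91, and 4.75 CPM against 25.0, 13.8, and 17.3 CPM, a log2FC of -2.05 ± 0.33 (SE, edgeR adjusted p = 0.000366). In each of the 3 genes every treated library was below every Fc library, as the naming rule required. The call of each held with GC correction and in all 7 left-out fits. AP002800.1, a gene model named after its clone, fell as well (1.87 to 3.20 against 11.8 to 18.1 CPM), with the same calls.

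The other genes with the lowest log2FC were PIK3IP1, an inhibitor of PI3 kinase (1.61 to 4.45 against 8.38 to 25.1 CPM), SORBS2, an adaptor of the actin cytoskeleton (1.02 to 5.35 against 6.24 to 22.5 CPM), BORA, a cofactor of Aurora A (1.02 to 13.3 against 17.4 to 47.5 CPM), PNRC1, a nuclear coregulator (10.7 to 26.0 against 36.6 to 80.0 CPM), RHOU, an atypical small GTPase (0.268 to 4.65 against 9.36 to 15.1 CPM), and GRAMD1C, a sterol transporter (1.5 to 3.64 against 8.92 to 14.9 CPM). They depended more on single libraries. SORBS2 and BORA lost their call without Fc replicate 1 (edgeR adjusted p = 0.13 and 0.145), PNRC1 without Fc replicate 1 or 4 (0.0734 at the highest), PIK3IP1 without treated replicate 1 or 2 or Fc replicate 4 (0.22 at the highest), RHOU without treated replicate 1 or 2 or Fc replicate 1 or 4 (0.123 at the highest), and GRAMD1C without any library but Fc replicate 3 (0.166 at the highest). RHOU and GRAMD1C also lost it with GC correction (edgeR adjusted p = 0.0551 and 0.0646).

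Ribosome biogenesis was the gene list with the most members that rose, as a count. By share the smaller list of hemidesmosome and laminin-332 genes was higher (36.4% against 32.2%). Of 118 members tested 38 rose and 0 fell, where 3.01% of all genes rose. The list's median log2FC was 0.67, while the median of all genes was -0.01. A positive log2FC was seen in 109 members, beside 48.9% of all genes. With GC correction 32 rose (median 0.63), and the median GC content of the list, 44.4%, was near that of all genes. The count was 14 without Fc replicate 1, 15 without Fc replicate 4, and 13 against the untreated libraries. By step, 17 of 47 factors of the small subunit, 19 of 48 factors of the large subunit, 1 of 14 subunits and partners of RNA polymerase I, and 1 of 9 genes of the H/ACA particle and nucleolar chaperones rose.

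In the large subunit group, PES1, a subunit of the PeBoW complex, was at 126, 114, 162, and 73.2 CPM under EGFhigh + EpEX and at 31.3, 47.0, and 31.9 CPM under Fc (log2FC 1.70 ± 0.33, SE, edgeR adjusted p = 0.00188). PPAN, a factor of large subunit maturation, was at 23.3, 23.3, 32.1, and 14 CPM against 6.52, 6.02, and 5.62 CPM (log2FC 1.93), and its reads are uncertain because a readthrough gene of PPAN and P2RY11 covers it. In the small subunit group, RRP12, an export factor of pre-ribosomes, was at 98.6, 85.1, 103, and 55.4 CPM against 26.4, 29, and 21.6 CPM (log2FC 1.74 ± 0.29, SE, edgeR adjusted p = 0.000388). All 3 kept their call with GC correction and in all 7 left-out fits. CD3EAP, a subunit of RNA polymerase I, was at 112 to 218 CPM against 31.2 to 83.8 CPM (log2FC 1.69) and lost its call without Fc replicate 1 or 4 (edgeR adjusted p = 0.0804 at the highest), and it overlaps ERCC1 on the other strand. DKC1, the pseudouridine synthase of the H/ACA particle, was at 578 to 857 CPM against 251 to 345 CPM (log2FC 1.27 ± 0.20, SE, edgeR adjusted p = 0.000257) and rose in every one of these fits. MYC, a known activator of such genes, had 34.8, 20.5, 3.05, and 11.5 CPM against 34.6, 7.36, and 14.2 CPM, a log2FC of -0.11 with edgeR adjusted p = 0.958, so the groups overlapped and no difference was detectable.

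The promoters of the list were searched for the E-box CACGTG, which reads the same on both strands and is bound by MYC and related factors. Promoters here are the 250 bases before and 50 bases after the start of a gene in RefSeq (GRCh38.p14), found for 10322 of the genes tested. The E-box was in 1029 of these (9.97%), in 30 of 96 promoters of the list (31.25%), in 12 of 34 of its members that rose, and in 18 of 62 of its members that were not called. Its share was 35.3% in the members that rose and 29% in those that did not pass. Among all genes that rose, 55 of 363 promoters held it (15.2%), and among those that fell 16 of 181 (8.84%). A match describes the sequence and is not a binding site. The stretches below are shown because they place the motif at the start of genes that rose. They are from 4 members with a low adjusted p, not necessarily the lowest, chosen after their values were seen. These also rose with GC correction, and their E-box begins within 30 bases of the start. Each runs 5′ to 3′ on the gene's strand from 250 bases before the start to 30 bases after it, with the E-box in capitals.
WDR43 (small subunit, log2FC 1.31, chr2:28894417-28894696, plus strand): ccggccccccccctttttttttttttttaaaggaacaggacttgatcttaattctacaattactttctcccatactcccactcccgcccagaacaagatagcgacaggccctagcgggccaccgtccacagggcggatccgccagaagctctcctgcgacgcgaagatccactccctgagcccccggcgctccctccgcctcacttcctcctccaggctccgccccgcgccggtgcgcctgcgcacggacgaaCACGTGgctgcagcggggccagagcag
RRP9 (small subunit, log2FC 1.47, chr3:51941875-51942154, minus strand): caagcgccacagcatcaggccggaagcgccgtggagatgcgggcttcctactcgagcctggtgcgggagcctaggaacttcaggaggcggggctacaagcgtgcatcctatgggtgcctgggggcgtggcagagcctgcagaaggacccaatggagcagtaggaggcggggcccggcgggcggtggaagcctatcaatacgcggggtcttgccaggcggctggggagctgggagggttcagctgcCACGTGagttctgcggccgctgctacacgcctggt
PES1 (large subunit, log2FC 1.70, chr22:30591881-30592160, minus strand): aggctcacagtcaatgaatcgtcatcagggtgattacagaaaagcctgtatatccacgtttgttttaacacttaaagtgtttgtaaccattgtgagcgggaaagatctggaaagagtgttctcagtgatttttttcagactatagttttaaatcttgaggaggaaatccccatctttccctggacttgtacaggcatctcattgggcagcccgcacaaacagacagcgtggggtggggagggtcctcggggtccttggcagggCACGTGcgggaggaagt
PNO1 (small subunit, log2FC 1.37, chr2:68157638-68157917, plus strand): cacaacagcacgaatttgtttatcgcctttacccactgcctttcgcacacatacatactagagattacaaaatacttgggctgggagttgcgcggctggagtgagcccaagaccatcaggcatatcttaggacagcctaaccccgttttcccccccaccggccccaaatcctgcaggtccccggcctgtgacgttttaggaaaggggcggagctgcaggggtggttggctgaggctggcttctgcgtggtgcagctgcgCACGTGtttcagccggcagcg
The motif begins 5 bases before the start in RRP9 and at base 4 of the transcript in WDR43, base 10 in PNO1, and base 14 in PES1.

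AKAP12, one of the genes with the highest log2FC, is shown as well for a motif in its promoter. Its stretch holds a CArG box, the motif of serum response factor, here in capitals and 81 bases before the start, and also an E-box 93 bases before it, in lower case.
AKAP12 (chr6:151239717-151239996, plus strand): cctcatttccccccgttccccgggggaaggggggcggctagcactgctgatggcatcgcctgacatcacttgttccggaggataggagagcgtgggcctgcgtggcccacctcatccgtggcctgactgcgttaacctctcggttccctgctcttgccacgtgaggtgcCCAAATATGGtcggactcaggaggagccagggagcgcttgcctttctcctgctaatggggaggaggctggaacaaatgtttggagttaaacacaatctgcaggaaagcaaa
The CArG box was searched as CC, 6 bases that are each A or T, and GG, a pattern that covers both strands. It is in 110 of the 10322 promoters (1.07%), in 6 of 363 of the genes that rose, and in 0 of 181 of the genes that fell. The AP-1 motif TGAGTCA on either strand was in 336 of all promoters (3.26%) and in 15 of 363 of the genes that rose (4.13%), and the CRE TGACGTCA in 338 (3.27%) and 18 (4.96%).

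Growth-arrest and FOXO-linked genes went the other way. Of 34 members tested 0 rose and 6 fell, where 1.51% of all genes fell, and the median log2FC was -0.64. The 6 were PIK3IP1, TXNIP, KLHL24, HBP1, CCNG2, and INSR. HBP1, a repressor of cell cycle genes, was at 7.50, 5.78, 17.5, and 23.7 CPM against 51.8, 27.9, and 58.2 CPM under Fc (log2FC -1.74 ± 0.36, SE, edgeR adjusted p = 0.00291) and fell in all 7 left-out fits. CCNG2, the cyclin G2 of quiescent cells, was at 0.937 to 7.18 against 12.1 to 18.1 CPM (log2FC -1.69), and INSR, the insulin receptor, at 16.6 to 24.5 against 26.3 to 48.1 CPM (log2FC -0.94), both named because they complete the count. With GC correction 4 fell, and CCNG2 and INSR missed the threshold (edgeR adjusted p = 0.0673 and 0.0569). Without treated replicate 2 or without Fc replicate 4 the count was 3. The FOXO factors themselves, FOXO1, FOXO3, and FOXO4, had a log2FC of -0.32, 0.03, and -0.69 and did not pass.

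Of the EGFR family, EGFR itself was at 1429 to 2461 CPM under EGFhigh + EpEX and at 1549 to 1912 CPM under Fc, with a log2FC of 0.16 ± 0.17 (SE, edgeR adjusted p = 0.655). The groups overlapped and no difference was detectable. ERBB3, the kinase-poor partner receptor, was at 22.1, 20.8, 46.7, and 39.5 CPM against 71.4, 67.5, and 69.9 CPM (log2FC -1.10 ± 0.28, SE, edgeR adjusted p = 0.0172). It fell also with GC correction but lost its call without treated replicate 1 or 2 or Fc replicate 1 or 4 (edgeR adjusted p = 0.0796 at the highest). Of 7 ligands tested HBEGF passed (2 with the replicate block and 0 with GC correction), with 258, 42.1, 36.2, and 17.6 CPM against 12.4, 25.0, and 22.6 CPM. Treated replicate 1 was far above the others, the groups overlapped, and without this library the log2FC fell from 2.15 to 0.71 (edgeR adjusted p = 0.536). The call was also lost without any 1 Fc library and with GC correction (edgeR adjusted p = 0.0603). EPCAM, the gene of the membrane protein that EpEX comes from, was at 232, 227, 244, and 174 CPM against 293, 201, and 212 CPM (log2FC -0.10, edgeR adjusted p = 0.855), and 0 of the 11 genes of the EpCAM family and its cleaving proteases passed, while 1 fell with the replicate block.

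Few of the inhibitors that ERK switches on passed at 6 h, which does not show that they did not respond. Of 19 ERK feedback genes 0 rose and 1 fell, DUSP16, a phosphatase of JNK and p38 (4.65 to 11.1 against 7.80 to 21.7 CPM). Its groups overlapped, and the call was lost with GC correction (edgeR adjusted p = 0.0635) and without any 1 of treated replicates 2 to 4 and Fc replicates 1 and 4 (adjusted p = 0.24 at the highest). DUSP6, the phosphatase of ERK, was at 68.1 to 165 against 124 to 171 CPM (log2FC -0.15), SPRY2 at 19.1 to 24.8 against 8.69 to 29 CPM (0.13), and SPRY4 at 5.24 to 15.7 against 1.77 to 5.35 CPM (1.47), and none of these 3 passed (edgeR adjusted p from 0.133 to 0.901).

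Of 32 immediate-early and ERK-driven transcription factors 2 rose and 3 fell, and 2 rose and 2 fell with GC correction. Before the correction this is 6.25% up and 9.38% down, beside 3.01% and 1.51% of all genes. ETS1, a factor of invasion programs, was at 71.2, 30.6, 17.3, and 32.2 CPM under EGFhigh + EpEX and at 9.46, 6.46, and 11.2 CPM under Fc (log2FC 2.05 ± 0.46, SE, edgeR adjusted p = 0.00639), and it rose with GC correction and in all 7 left-out fits. KLF5, a factor of basal epithelium, was at 187 to 256 against 145 to 161 CPM (log2FC 0.64) and is named to complete the count. ATF3, a stress-induced partner of AP-1, was at 53.9, 9.84, 33.7, and 18.7 CPM against 46.7, 116, and 121 CPM (log2FC -1.69 ± 0.41, SE, edgeR adjusted p = 0.0105), so treated replicate 1 lay within the range of Fc, and without Fc replicate 4 the adjusted p was 0.08. HES1, a repressor downstream of Notch, was at 211, 141, 207, and 563 CPM against 608, 1039.8, and 933 CPM (log2FC -1.61), and lost its call with GC correction (edgeR adjusted p = 0.0636) and without any library but treated replicate 4 (0.124 at the highest). EGR2 was at 0 to 0.873 CPM against 0.621, 7.58, and 4.14 CPM, near the floor, and lost its call in 4 of 7 left-out fits, those without treated replicate 1 or 2 or Fc replicate 3 or 4 (edgeR adjusted p = 0.113 at the highest). FOSL1, the AP-1 subunit of invasive squamous cells, ranged from 19.3 to 347 CPM under EGFhigh + EpEX and from 37.0 to 77.7 CPM under Fc (log2FC 1.32, edgeR adjusted p = 0.156).

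Of 11 genes of hemidesmosomes, laminin-332, and their integrins, which anchor cells to the basement membrane, 4 rose and 0 fell. The share that rose was 36.4%, beside 3.01% of all genes. With GC correction 3 rose, and with GC correction and the replicate block 4 rose and 1 fell. ITGA3, the integrin α3 that binds laminins, was at 261, 173, 300, and 188 CPM against 110, 112, and 115 CPM (log2FC 1.04, edgeR adjusted p = 0.00373, and 0.0413 with GC correction). The groups did not overlap, and ITGA3 rose in all 7 left-out fits. CD151, a tetraspanin partner of integrins (log2FC 0.89), and PLEC, the linker to keratins (0.87), rose in all left-out fits but not with GC correction (edgeR adjusted p = 0.212 and 0.301), where ITGB1 passed instead (0.0217). ITGB4, the integrin β4 of hemidesmosomes, was at 1148, 760.1, 1126, and 1150.3 CPM against 865, 1017, and 1151 CPM, a log2FC of 0.05 with edgeR adjusted p = 0.952.

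Of 15 squamous keratin genes 3 rose and 0 fell, all of them keratins of activated keratinocytes. They make up 20% of the list, where 3.01% of all genes rose. KRT6A was at 86.5, 150, 53.5, and 235 CPM against 17.4, 9.58, and 28.7 CPM (log2FC 2.81 ± 0.65, SE, edgeR adjusted p = 0.00798). KRT17 was at 10.7, 16.3, 33.6, and 20.6 CPM against 1.09, 2.45, and 5.76 CPM (2.69), and KRT16 at 9.20 to 28.8 against 3.10 to 7.80 CPM (1.85). The groups did not overlap in any of the 3, which the naming rule required of KRT6A and KRT17. KRT6A and KRT17 rose with GC correction too, and each lost its call without Fc replicate 1 (edgeR adjusted p = 0.0571 and 0.0539), while KRT16 lost it with GC correction (0.13) and without treated replicate 1 or 3 or Fc replicate 1 or 4 (0.169 at the highest). With the replicate block 7 of the 15 rose, with GC correction 2, and without Fc replicate 1 none did. KRT6A has near-identical copies and KRT16 and KRT17 have pseudogenes, so reads may be shared or lost among them. Of 15 cornified envelope genes 1 rose, and 3 with the replicate block. The 1 was SPRR2A, at 28.5, 12.6, 10.5, and 2.22 CPM against 1.71, 2.45, and 0 CPM, and it lost its call without treated replicate 1 or Fc replicate 1 or 4 (edgeR adjusted p = 0.0817 at the highest). SFN, the 14-3-3 protein σ of squamous epithelium, was at 1498 to 2195 against 380 to 782 CPM (log2FC 1.57, edgeR adjusted p = 0.00388) and lost its call without Fc replicate 1 (0.0603).

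Of 24 regulators and markers of epithelial-to-mesenchymal transition (EMT) 1 rose and 2 fell, all 3 epithelial. In shares this is 4.17% up and 8.33% down, beside 3.01% and 1.51% of all genes. ESRP1, the splicing factor of epithelial cells, was at 169, 84.1, 103, and 144 CPM against 232, 226, and 297 CPM (log2FC -1.01 ± 0.21, SE, edgeR adjusted p = 0.00249). GRHL2, an epithelial transcription factor, was at 32.7, 25.0, 34.2, and 39.1 CPM against 67.8, 63.3, and 70.1 CPM (log2FC -1.03, edgeR adjusted p = 0.00922, and 0.0543 without Fc replicate 4). CLDN7, a tight junction claudin, was at 258, 272, 247, and 222 CPM against 106, 137, and 95.2 CPM (log2FC 1.15, edgeR adjusted p = 0.0058). All 3 passed with GC correction, and the groups did not overlap. E-cadherin (CDH1, log2FC -0.18), vimentin (VIM, 0.15), and SNAI2 (-0.76) did not pass (edgeR adjusted p from 0.398 to 0.893), and 0 of 5 EMT transcription factors tested did. In the urokinase system and matrix proteases 1 of 17 genes rose, PLAT, the tissue plasminogen activator (25.1 to 64.0 against 6.91 to 14.1 CPM, log2FC 1.74), with a call that was lost without treated replicate 2 or any 1 Fc library (edgeR adjusted p = 0.13 at the highest).

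Of 22 mitosis genes 0 rose and 4 fell, where 1.51% of all genes fell. All 22 had a log2FC below 0 and the median was -0.70, while with GC correction 1 was above 0 and the median was -0.57. Over all genes 48.9% were above 0 without the correction. The median GC content of the list was 35.2%. KIF20A, the kinesin of cytokinesis, was at 5.35, 7.70, 10.8, and 20.5 CPM against 39.1, 47.5, and 37.0 CPM (log2FC -1.87 ± 0.37, SE, edgeR adjusted p = 0.00186) and fell with GC correction and in all 7 left-out fits. CCNB2, a B-type cyclin, was at 60.8, 23.5, 27.6, and 65.8 CPM against 134, 105, and 100.4 CPM (log2FC -1.34) and lost its call without treated replicate 2 or Fc replicate 1 (edgeR adjusted p = 0.0767 at the highest). BUB1 (log2FC -1.12) and ANLN (-0.95) lost their calls with GC correction (edgeR adjusted p = 0.092 and 0.0964) and in 6 of 7 left-out fits. The count of 4 became 2 with GC correction, 9 with the replicate block, and 2 against untreated cells, and it was 1 or 2 without treated replicate 1, 2, or 4 or Fc replicate 1 or 3. CCND1, the cyclin of entry into the cell cycle, was at 685, 633, 395, and 523 CPM against 360, 313, and 305 CPM (log2FC 0.78 ± 0.21, SE, edgeR adjusted p = 0.0217), the 1 of 9 entry genes that rose (2 with the replicate block), and lost its call with GC correction (0.342) and without treated replicate 1 or any 1 Fc library (0.0819 at the highest). Of 25 DNA replication genes 0 passed (median log2FC 0.03, and -0.07 with the replicate block).

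**Figure D3:**
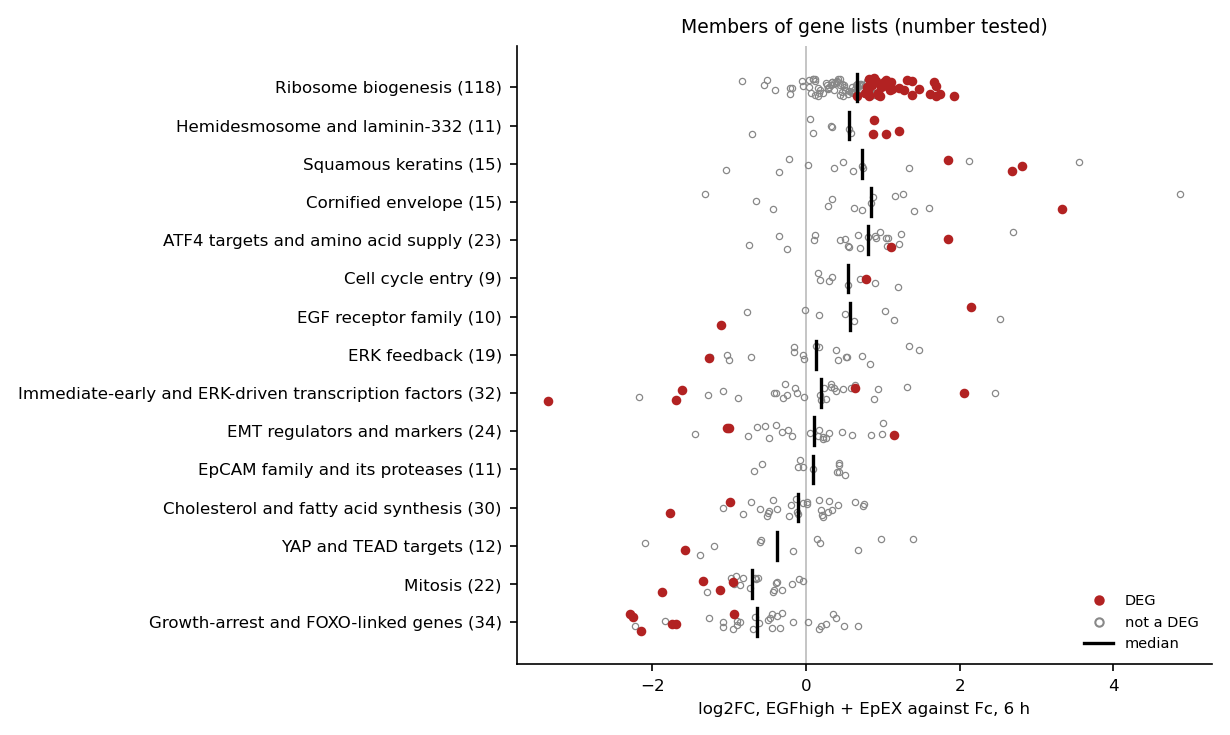
log2FC of EGFhigh + EpEX against Fc at 6 h (x axis) for the members tested in 15 gene lists (y axis, with the number tested). Red points are DEGs, open points are not, and black bars are medians. Ribosome biogenesis has its median at 0.67 and 38 DEGs, all above 0, and all 22 mitosis genes lie below 0.

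EGFhigh without EpEX was compared with untreated cells, in libraries that are in neither group of EGFhigh + EpEX against Fc but were part of the same fit. Of the 694 DEGs 662 (95.4%) had the same sign there, against 64.6% of all genes tested. 165 of them passed as DEGs in the same direction and 0 in the opposite one, which is 23.8% of the 694 and 42.2% of the 391 DEGs of EGFhigh (2.55% of all genes, and 392 DEGs with GC correction). The median log2FC under EGFhigh was 0.63 for the genes that had risen and -0.69 for those that had fallen, smaller than the 1.06 and -1.12 under EGFhigh + EpEX, where the genes were chosen. At the lower dose EGFlow, against the same untreated libraries, 125 genes rose (0.814%) and 105 fell (0.684%), and 651 of the 694 DEGs (93.8%) had the same sign, with 112 DEGs in the same direction and 0 in the opposite one. The 230 DEGs of EGFlow became 212 with GC correction. With the replicate block EGFhigh had 636 DEGs and EGFlow 417. The EGFhigh, EGFlow, and EGFhigh + EpEX groups at 6 h held a replicate 2, and the untreated and Fc groups at 6 h did not. Its part in the shared signs was not tested. Among the DEGs kept with GC correction 97.5% had the same sign and 131 of 395 passed, and among those lost 92.6% and 34 of 299 under EGFhigh. Of the 73 DEGs under the naming rule, SLC35A1 had the smallest absolute value under EGFhigh, with a log2FC of 0.01. Its level was 18.7 ± 5.71 CPM (SD, n = 3) under Fc and 8.08 CPM on average in untreated cells, and EGFhigh + EpEX against untreated cells did not pass for it (edgeR adjusted p = 0.235).

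The direct question, whether EGFhigh + EpEX against Fc differs from EGFhigh against untreated cells, gave 0 DEGs. Without adjustment 830 genes had p below 0.05 in edgeR and 879 in DESeq2, which also called 0. EGFhigh + EpEX against EGFhigh also gave 0 DEGs (577 genes with an unadjusted p below 0.05). A p that misses the threshold does not show that the responses are alike, and the intervals were wide. The log2FC of EGFhigh + EpEX against EGFhigh was -0.17 for AKAP12 (95% interval -0.91 to 0.56), 0.02 for SPOCD1 (-0.997 to 1.03), 0.08 for RRP12 (-0.43 to 0.59), and 0.02 for ESRP1 (-0.37 to 0.40). For KLHL24 it was 0.88 (0.20 to 1.57), with a lower mean under EGFhigh (6.25 CPM) than under EGFhigh + EpEX (11.3 CPM). The genes were named on the same EGFhigh + EpEX libraries, and the intervals are not adjusted over all genes.

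**Figure D4:**
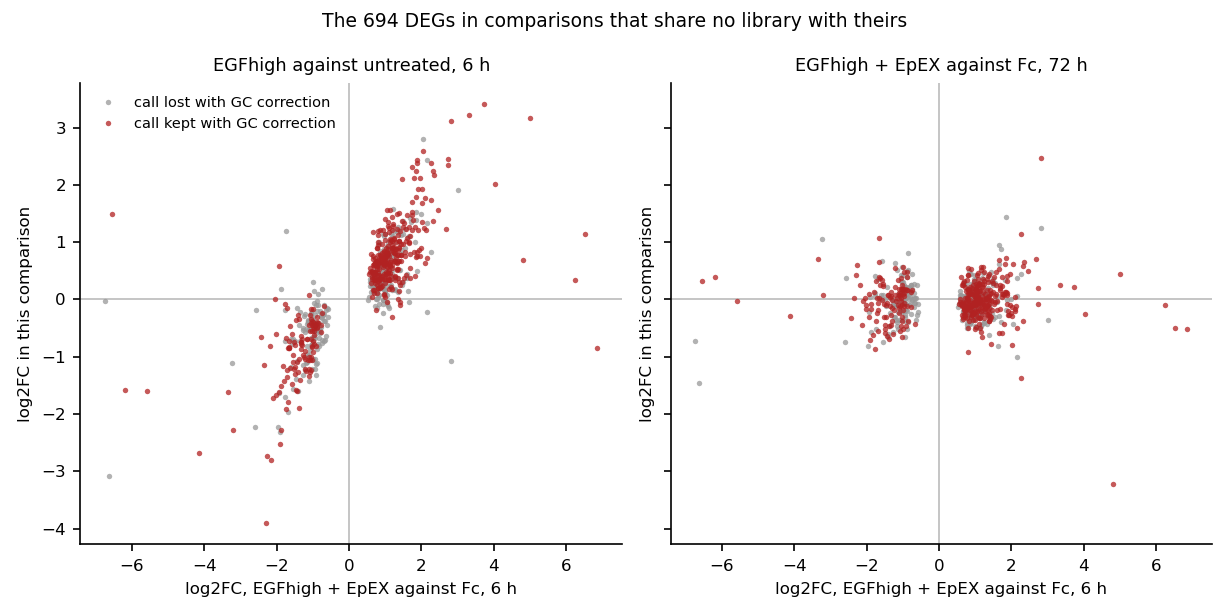
log2FC of the 694 DEGs under EGFhigh + EpEX against Fc at 6 h (x axis) and in another comparison (y axis), left EGFhigh against untreated cells at 6 h and right EGFhigh + EpEX against Fc at 72 h, neither of which shares a library with the x axis. Red points kept their call with GC correction and grey points lost it. On the left 95.4% of the points have the same sign on both axes, and on the right 47.3%.

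EpEX alone against Fc shares the Fc libraries with the comparison, so its values are only set beside it. It had 4 DEGs (0.0261%), AKAP12 and ARID3B among them, with a log2FC of 2.44 and 1.94 beside 2.75 and 2.32 under EGFhigh + EpEX. With the replicate block EpEX against Fc had 48 DEGs (38 up and 10 down), with GC correction 8, and with both 43. The mean level of AKAP12 was 80.2 CPM under EpEX, 110.4 under EGFhigh, and 111 under EGFlow, beside 98.2 ± 16.1 CPM (SD, n = 4) under EGFhigh + EpEX, 14.7 ± 3.99 (SD, n = 3) under Fc, and 21.8 in untreated cells. The ribosome biogenesis list had a median log2FC of 0.47 under EpEX, with 1 DEG, and growth-arrest genes one of -0.43, with 0 DEGs. The comparison of EGFhigh + EpEX with EpEX, where EGF is the added agent, gave 0 DEGs in edgeR and 1 in DESeq2. In edgeR 1551 genes had an unadjusted p below 0.05, and 1307 with GC correction, which also gave 0 DEGs. Its log2FC correlated with GC content (Spearman 0.389), as that of EGFhigh + EpEX against Fc did (0.341). The added EGF and this trend cannot be told apart in EGFhigh + EpEX against EpEX, and its values below are without GC correction. The log2FC in that comparison was 0.31 for AKAP12 (95% interval -0.50 to 1.11), 0.94 for SRM (0.46 to 1.42), 1.11 for SFN (0.45 to 1.78), and -1.12 for KLHL24 (-1.81 to -0.43). These genes were named on the same EGFhigh + EpEX libraries, so the values may lie too far from 0. The intervals are not adjusted over all genes, and EpEX replicate 4 had only 1944948 counts on genes.

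At 72 h the DEGs of 6 h did not keep their direction as a set. Of the 694, 328 (47.3%) had the same sign, against 48.6% of all genes tested. EGFhigh + EpEX against Fc had 0 DEGs at 72 h (601 genes in edgeR with an unadjusted p below 0.05), and 0 with GC correction. The Fc libraries of that time were uneven. In replicates 1 to 3 their totals were 10283031, 3773456, and 3262475 counts on genes. Their Spearman correlation with GC content was -0.172, -0.304, and 0.206. A count of 0 from such libraries does not show that each gene had lost its response. The median log2FC at 72 h was -0.03 for the genes that had risen at 6 h and -0.01 for those that had fallen, and that of the ribosome biogenesis list 0.001. The test of the difference between 6 h and 72 h, each against its own Fc, called 43 genes (0.28%), 33 of them higher (0.215%) and 10 lower (0.0651%) at 6 h, and 41 with GC correction, of which 28 were the same genes. ARID3B had a mean of 49.4 CPM under EGFhigh + EpEX at 6 h and 12 at 72 h, beside 9.91 and 15.5 CPM under Fc, a difference in log2FC of 2.69 ± 0.48 (SE, edgeR adjusted p = 0.0174). AKAP12 (2.82), the homeobox gene PITX1 (2.82), PRR7 (2.29), and the ribosome biogenesis gene RRP1 (2.25) also differed upward, and CEP44 (-2.30), SLC35A1 (-2.06), RGP1 (-2.0), RPL5P34 (-1.90), and NCOA2 (-1.81) downward. The count of 43 was not stable. It was 0 without Fc replicate 1 or 4 at 6 h, Fc replicate 3 at 72 h, or EGFhigh + EpEX replicate 2 at 72 h. It was 9 to 28 without EGFhigh + EpEX replicate 2 or 3 at 6 h, Fc replicate 3 at 6 h, EGFhigh + EpEX replicate 1 or 3 at 72 h, or Fc replicate 1 at 72 h. It rose to 91 without EGFhigh + EpEX replicate 4 at 6 h and to 131 without Fc replicate 2 at 72 h, and was 129 with the replicate block. KRT6A had a log2FC of 2.47 at 72 h beside 2.81 at 6 h and did not differ between the times beyond the error (difference 0.34 ± 0.91, SE, edgeR adjusted p = 0.919).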

How the data were processed

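The files hold read counts per gene for each library, as deposited by the authors. RNA was turned into libraries of 3′ ends with the QuantSeq 3′ FWD kit, and the submitters' processing notes name STAR, HTSeq, and the build GRCh38. Versions, the annotation, and the strand setting are not given in the sources used here. Summary lines of the counter were left out.

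Symbols were taken from GENCODE 29. Counts of all 43 Kyse30 libraries were fitted together in edgeR 4.0.16 (R 4.3.3) with TMM factors, filterByExpr (minimum count 10, minimum total 15), and the quasi-likelihood F test. A gene was called a DEG at an adjusted p no higher than 0.05 with a log2FC beyond 0.5 in either direction. Totals were 4507731 to 10438330 counts in the 7 libraries compared, and floors and intervals cover counting or fitting error only. The scripts were tested on simulated data.

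Libraries with equal replicate numbers in the sample titles were only slightly more alike than others. Deviations from the group means correlated at 0.108, 0.111, and 0.120 for equal numbers and at -0.127 to 0.0926 for unequal ones. A correlation of 0.1 had been set as the cut for pairing. Every pair with equal numbers was above it and every other pair below it, by little. The cut was thus met, but the p-values given are from the fit without a replicate term, except where the block is named. With the block 1091 genes passed instead of 694.

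The GC correction gave each library an offset, a loess trend (span 0.5) of log2 CPM over the GC content of the last 500 transcript bases, set on 8953 genes with a mean log2 CPM over 3. It was added after seeing the data. DESeq2 1.42.0, RLE factors, other filters, other controls, fewer libraries in the fit, the replicate block, and leaving out each library were the other alternatives.

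Genes were named by a rule. It took the 10 highest and 10 lowest log2FC among DEGs without overlap and with a mean of at least 5 CPM, the 5 lowest adjusted p, up to 4 DEGs of each list with the largest absolute log2FC, up to 5 at each end of the other tests, AKAP12 and ARID3B, and 14 fixed genes, among them EGFR, EPCAM, DUSP6, SPRY2, SPRY4, FOSL1, MYC, ITGB4, SNAI2, CDH1, VIM, and CCND1 (the others are not reported here). Genes outside the rule are said to complete a count. The comparison and the lists were chosen with earlier results of these data known.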

Additional observations from a re-analysis of the deposited data

Results flagged for a closer look

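In 6 of the 86 named genes 1 of the 4 EGFhigh + EpEX libraries stood far from the other 3, with a gap to the nearest library that took more of the group's range than Dixon's critical value for 4 samples allows. Chance flags about 1 in 20 groups of independent, normally spread values. The genes here were measured in the same libraries, so the count is not weighed against that rate. Whether single libraries had shifted was not tested. Replicate 1 was high in HBEGF (258 CPM, the others 17.6 to 42.1 CPM, a gap of 0.898 of the range), in SESN2, a stress-induced inhibitor of mTORC1 (325 CPM, the others 25.1 to 34.9 CPM, 0.967), and in ADM2 (60.0 CPM, the others 3.85 to 13.2 CPM, 0.833). Replicate 4 was high in HES1 (563 CPM, the others 141 to 211 CPM, 0.836). Replicate 2 was high in VIM (93.1 CPM, the others 23.4 to 30.8 CPM, 0.893) and low in ITGB4 (760.1 CPM, the others 1126 to 1150.3 CPM, 0.937).

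In 10 named genes the test of the difference between 6 h and 72 h in EGFhigh + EpEX against Fc passed. The difference in log2FC was 2.82 for AKAP12, 2.82 for PITX1, 2.69 for ARID3B, 2.29 for PRR7, and 2.25 for RRP1, and it was -2.30 for CEP44, -2.06 for SLC35A1, -2.0 for RGP1, -1.90 for RPL5P34, and -1.81 for NCOA2 (edgeR adjusted p from 0.0174 to 0.0494). RPL5P34 is a pseudogene of RPL5, so its reads are uncertain, and it was no DEG at 6 h (log2FC -0.73, edgeR adjusted p = 0.157).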

How the results depend on the processing

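No count and no named DEG changed its direction in the alternatives run, while the median log2FC of some gene lists, DNA replication and cholesterol and fatty acid synthesis among them, and the log2FC of some named genes that had not passed (among them CDH1, DUSP6, EPCAM, ITGB4, MYC, SPRY2, and VIM) changed sign in some. The 694 DEGs became 1112 with DESeq2, 1091 with the replicate block, 414 at an absolute log2FC over 1, 217 against untreated cells, 209 with the 7 libraries alone in the fit, and 222 to 837 with 1 library left out. Without a filter on low counts 943 passed, with a mean of at least 5 CPM 909, with the 6 h libraries alone 840, and with RLE factors 717. The 38 ribosome biogenesis genes that rose became 16 with the 7 libraries alone, 13 against untreated cells, and 14 to 47 with 1 library left out, and the 6 growth-arrest genes that fell 3 to 6. The difference between EGFhigh + EpEX against Fc and EGFhigh against untreated cells gave 2 DEGs without a filter on low counts and 0 to 0 with 1 library left out. EGFhigh + EpEX against EpEX gave 1 with DESeq2, 109 without the filter, 1 with the replicate block, and 0 to 2 with 1 library left out. The 43 genes that differed between 6 h and 72 h became 255 with DESeq2, 212 without the filter, 70 with a mean of at least 5 CPM, 2 with the libraries of the groups alone, 129 with the replicate block, 115 with GC correction and the block, and 0 to 131 with 1 library left out. The causes were not tested, beyond the smaller number of libraries in some fits. Of the 73 named DEGs 73 kept their call with the replicate block, 55 with GC correction, 34 against untreated cells, 39 without Fc replicate 1, and 44 without Fc replicate 4. Genes under the floor of 0.303 to 0.669 CPM per library could not be compared.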

Other observations

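Of 23 ATF4 targets and amino acid genes 2 rose (8.7%, beside 3.01% of all genes) and 0 fell. A positive log2FC was seen in 20, and the median was 0.80 (0.67 with GC correction). Over all genes 48.9% had a positive log2FC and the median was -0.01. The 2 were SESN2 and PYCR1, an enzyme of proline synthesis (101 to 213 CPM under EGFhigh + EpEX, 44.0 to 80.2 CPM under Fc, log2FC 1.11, edgeR adjusted p = 0.00373, and 0.0543 without Fc replicate 4). With the replicate block 5 rose, and 1 with GC correction. SESN2 was a DEG through 1 library, and without treated replicate 1 its log2FC was 0.08. It also lost its call with GC correction (edgeR adjusted p = 0.111). Of 31 glycolysis and hypoxia genes 2 rose, PFKP, a phosphofructokinase (179.9 to 296 against 85.4 to 98.3 CPM, log2FC 1.27, edgeR adjusted p = 0.00271), and SLC16A3, a lactate exporter (297 to 562 against 263 to 269 CPM, log2FC 0.69), which lost its call with GC correction and in 5 of 7 left-out fits (edgeR adjusted p = 0.13 at the highest). With the replicate block 5 rose. Of 30 cholesterol and fatty acid genes 2 fell, among them LSS, the lanosterol synthase (25.7 to 52.0 against 76.9 to 88.6 CPM, log2FC -0.99), while the list's median was -0.11 (0.02 against untreated cells). LSS lost its call without treated replicate 1 or 2 or any 1 Fc library (edgeR adjusted p = 0.123 at the highest).

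Of 12 YAP and TEAD targets 1 fell, AJUBA (3.05 to 11.8 against 21.6 to 32.5 CPM, log2FC -1.57), with a call that was lost without Fc replicate 4 (edgeR adjusted p = 0.0713). Of 8 heat shock genes 1 rose, DNAJB1 (385 to 658 against 251 to 370 CPM, log2FC 0.84), and 2 with the block. DNAJB1 lost its call without treated replicate 2 or Fc replicate 1 or 4 (edgeR adjusted p = 0.132 at the highest). Of 13 chemokines and cytokines 1 rose, CXCL16 (14.2 to 34.0 against 6.46 to 10.9 CPM, log2FC 1.36), which lost its call with GC correction (edgeR adjusted p = 0.0722) and in 5 of 7 left-out fits (0.158 at the highest). Of 20 interferon-stimulated genes and 17 TGF-beta pathway genes 0 passed, and with the block 1 of the TGF-beta genes rose and 1 fell. Of 355 ZNF genes 4 rose and 3 fell, ZNF593 among them (38.8 to 75.3 against 16.4 to 24.3 CPM, log2FC 1.38), and with the block 6 rose and 4 fell (2 and 2 with GC correction). Without block or correction the shares, 1.13% up and 0.845% down, were below those of all genes (3.01% and 1.51%).

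The EGFR-mediated EMT signature of the study was chosen on libraries of this series, so it is no independent evidence of a direction. Of 171 members 3 rose and 8 fell at 6 h, 2 and 5 with GC correction, and 8 and 14 with the replicate block, with a median log2FC of -0.04. Without correction or block this is 1.75% up and 4.68% down, beside 3.01% and 1.51% of all genes. KIF2C, a mitotic kinesin, had the lowest adjusted p (44.6 to 66.1 against 97 to 194 CPM, log2FC -1.33, edgeR adjusted p = 0.000696) and fell in all 7 left-out fits and with GC correction. MSRB3, a methionine sulfoxide reductase, was at 8.77 to 19.3 against 4.46 to 5.62 CPM (log2FC 1.39) and lost its call in 5 of 7 left-out fits (edgeR adjusted p = 0.14 at the highest). CORO2B was at 1.07 to 4.55 CPM against 0, 0, and 0.148 CPM, which is 1 count over the 3 Fc libraries, so no fold is given.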
